A study of Mus musculus with 6 samples.

Results

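The enzymes that make serine, and the folate enzymes that take a carbon unit from it, were compared in ear skin of mice with and without Ufl1 in keratin 14 lineage cells. The set held 9 genes, taken by name from the deposited table of 54532 genes: Phgdh, Psat1 and Psph of serine synthesis, Shmt1, Shmt2, Mthfd2, Mthfd1l and Aldh1l2 of folate metabolism, and the asparagine synthetase Asns. All 9 were among the 17318 genes with enough counts to be tested. Ufl1 encodes the ligase that joins UFM1, a ubiquitin-like modifier, to other proteins. The 3 cKO libraries came from mice of genotype Ufl1f/f KRT14Cre/+, in which a Cre driven by the keratin 14 promoter is active in the basal layer of skin epithelia and in the descendants of those cells. The 3 control libraries came from mice labelled Ufl1f/+ or Ufl1f/f, which carried no Cre, and all mice were 3 months old. Because no control had the Cre transgene, effects of Cre and of the loss of Ufl1 cannot be told apart. Nothing in the labels ties each library to its own animal, so every p-value reflects the variation among these 6 libraries, which may be technical.

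Serine is made from a glycolytic intermediate in a chain of reactions catalysed by Phgdh, Psat1 and Psph. Serine hydroxymethyltransferases, Shmt2 in mitochondria and Shmt1 in the cytosol, split serine into glycine and a carbon unit carried on tetrahydrofolate. In mitochondria Mthfd2 oxidises that unit, and it then leaves as formate through Mthfd1l or is burned to CO2 by Aldh1l2, while cytosolic folate enzymes use formate for purines and thymidylate. Several of these genes, and Asns, are known as targets of ATF4, the transcription factor of the integrated stress response, and cells that divide use much of the pathway.

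Total counts were 18212929 to 19050876 in cKO libraries and 17256339 to 20776539 in control libraries. Ufl1 itself was at 34.9 to 38.8 CPM in cKO libraries, against 46.1 to 57.9 CPM in control libraries (CPM, counts scaled to the same library total after TMM normalization, is the unit of all levels below unless FPKM is named). The log2 fold change of Ufl1 was -0.47 (SE 0.14), and its adjusted p was 0.778 in edgeR's quasi-likelihood test. The tissue label was compared with marker genes: the summed level of 7 basal keratinocyte markers was 5408 to 7212 CPM in cKO libraries and 3354 to 11588 CPM in control libraries, and that of 5 cartilage markers was 849 to 1510 CPM in cKO libraries and 739 to 1516 CPM in control libraries. Control 2 was at 11588 CPM for the basal markers and control 1 was at 3354 CPM. In a bulk sample, fewer cells of a type and less RNA per cell cannot be told apart.

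Promoter sequences are given for 4 of the genes because their regulation by ATF4 is the textbook link between them. RefSeq windows (GRCm38.p6, the assembly behind mm10) running from 250 bases before to 50 bases after a start site were at hand for 8 of the 9 genes, Aldh1l2 being the one without. The core of the C/EBP-ATF response element was searched as TGATGNAA on both strands. It was found in 1 of the 8 genes, Asns, and in 4.51% of all 27025 genes with a window. The match begins 23 bases before the RefSeq start site of Asns, in chr6:7693160-7693459 on the minus strand, and is in capitals. The deposited gene Asns begins at 7693254, upstream of that start site, so the match lies inside the gene as counted.
Asns: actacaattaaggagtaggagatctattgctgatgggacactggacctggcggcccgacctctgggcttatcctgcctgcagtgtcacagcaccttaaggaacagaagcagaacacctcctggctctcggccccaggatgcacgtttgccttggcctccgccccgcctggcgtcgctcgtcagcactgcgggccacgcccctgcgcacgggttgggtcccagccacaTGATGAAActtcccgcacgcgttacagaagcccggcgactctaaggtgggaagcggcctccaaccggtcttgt
The CCAAT box, searched as CCAAT on both strands, was present in 5 of the 8 genes (Phgdh, Psat1, Psph, Shmt1 and Mthfd2), against 41.1% of all genes with a window. The E-box CACGTG, its own reverse complement, was in 0 of the 8 and in 8.09% of all genes. CCAAT matches on either strand are in capitals in the next 3 windows. They show Mthfd2 (chr6:83317555-83317854), whose libraries separated by genotype, and Psat1 (chr19:15925010-15925309, one of its 2 windows) and Phgdh (chr3:98339920-98340219), adjacent steps of serine synthesis. All 3 genes lie on the minus strand. The deposited genes Mthfd2 and Psat1 begin further upstream, at 83325908 and 15947337, so their RefSeq windows lie inside the genes as counted.
Mthfd2: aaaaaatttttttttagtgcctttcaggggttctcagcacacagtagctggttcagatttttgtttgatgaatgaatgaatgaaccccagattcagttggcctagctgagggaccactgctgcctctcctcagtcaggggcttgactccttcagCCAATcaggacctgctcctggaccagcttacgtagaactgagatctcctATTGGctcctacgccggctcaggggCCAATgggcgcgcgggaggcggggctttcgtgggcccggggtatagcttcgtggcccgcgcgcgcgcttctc
Psat1: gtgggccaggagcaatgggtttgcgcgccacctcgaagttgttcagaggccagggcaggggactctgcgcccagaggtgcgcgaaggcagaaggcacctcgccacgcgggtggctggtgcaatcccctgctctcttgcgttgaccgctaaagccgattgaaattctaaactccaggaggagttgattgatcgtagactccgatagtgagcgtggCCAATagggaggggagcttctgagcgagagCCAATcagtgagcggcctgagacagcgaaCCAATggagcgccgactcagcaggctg
Phgdh: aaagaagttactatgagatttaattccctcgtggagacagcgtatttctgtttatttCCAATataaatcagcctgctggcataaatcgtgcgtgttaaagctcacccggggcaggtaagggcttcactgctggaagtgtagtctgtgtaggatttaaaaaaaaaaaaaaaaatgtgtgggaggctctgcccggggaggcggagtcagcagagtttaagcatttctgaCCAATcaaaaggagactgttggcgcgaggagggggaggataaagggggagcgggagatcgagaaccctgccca
Mthfd2 and Psat1 each had 3 CCAAT matches and Phgdh had 2. A match in such a window is a description of the letters, not a measured binding site.

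Expression per gene length was ordered on the authors' FPKM, averaged over the 6 libraries. Psat1 averaged 34.8 FPKM and Phgdh 34.1 FPKM, and Psat1 was the higher of the pair in 4 of 6 libraries, so their order did not exceed the spread. Psph averaged 15.1 FPKM, Shmt2 11.96 FPKM and Asns 11.8 FPKM. Phgdh was above Psph in 6 of 6 libraries, Psph above Shmt2 in 5, and Shmt2 above Asns in 4. The next level was held by cytosolic Shmt1 at 4.14 FPKM and Mthfd1l at 4.03 FPKM, of which Shmt1 was higher in 2 of 6 libraries, so these neighbours could not be ranked. Mthfd2 averaged 2.5 FPKM and Aldh1l2 0.640 FPKM, and Mthfd2 was above Aldh1l2 in 6 of 6 libraries. Per length, Psat1 and Phgdh of serine synthesis had the highest mean levels, and Mthfd2 and Aldh1l2 of the mitochondrial folate branch the lowest.

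**Figure D1:**
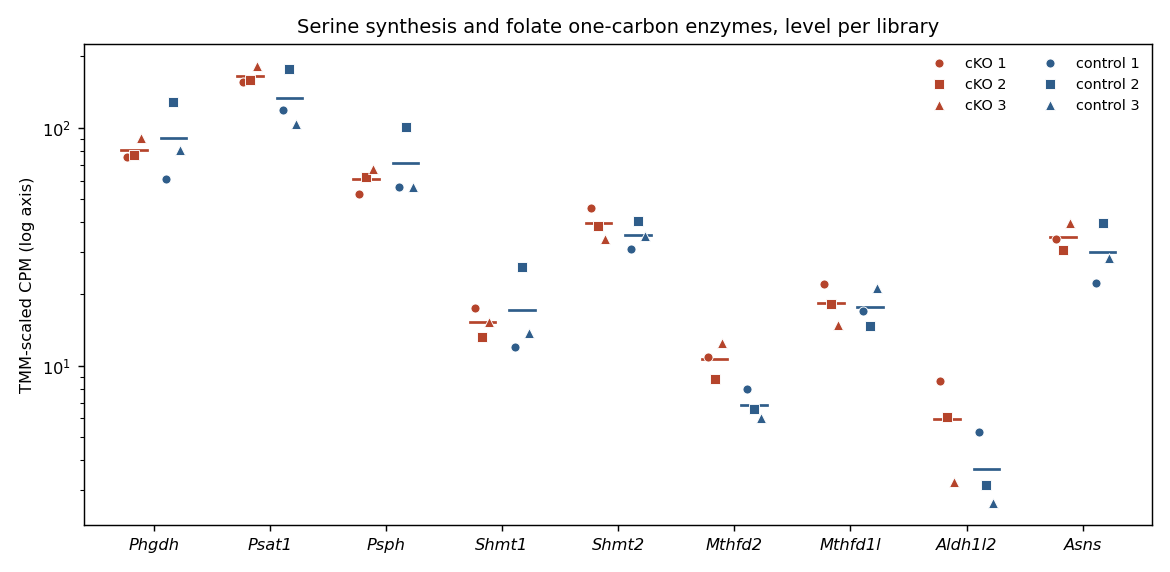
TMM-scaled CPM of the 9 enzyme genes on a log axis, 1 point per library (cKO in red, control in blue, symbols for replicates 1 to 3) with a line at each group mean. The groups separate for Mthfd2, and control 2 (blue square) lies above every other library for Phgdh, Psph and Shmt1.

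None of the 9 genes passed an adjusted p of 0.05 in edgeR, where 3 of the 17318 genes did (0.0173%). At an unadjusted p under 0.05, 1 of 9 was higher in cKO and 0 were lower, against 3.38% and 1.95% of all genes (5.33% in either direction). In 1 of 9, Mthfd2, all cKO libraries were above all control libraries, and in 0 all were below, where 5.73% and 4.81% of all genes separated in these directions (10.5% in all). These shares of the set are close to the background. The median log2 fold change was 0.16 over the 9 genes, 6 of which were positive, and -0.01 over all genes tested, 47.8% of which were positive. DESeq2 called 0 of the 9 as well, with 1 at an unadjusted p under 0.05.

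Mthfd2 (ENSMUSG00000005667, chromosome 6, 83305691 to 83325908, minus strand, mm10) encodes the mitochondrial methylenetetrahydrofolate dehydrogenase and cyclohydrolase. It was at 10.9, 8.77 and 12.5 CPM in cKO 1 to 3, against 7.99, 6.599 and 6.001 CPM in control 1 to 3. Every cKO library was above every control library, and the nearest pair, cKO 2 and control 1, was less than 1 CPM apart. The means were 10.7 ± 1.85 CPM in cKO and 6.86 ± 1.02 CPM in control (SD, n = 3 each), and the counts behind them were 195, 158 and 238 in cKO 1 to 3 and 134, 128 and 127 in control 1 to 3. The log2 fold change was 0.64 (SE 0.22, 95% interval 0.13 to 1.15), or 1.56-fold. In edgeR the unadjusted p was 0.0203, and 0.857 after adjustment over all genes. A log2 fold change above that of Mthfd2 was seen in 808 genes (4.67%). A two-sided exact permutation test of Mthfd2 reached p = 0.1, the lowest value possible with 3 libraries in each group. Leaving out each library in turn gave log2 fold changes of 0.52 (without cKO 3) to 0.76 (without cKO 2), so the sign did not rest on any of them. The unadjusted p in edgeR was 0.0563 without cKO 1, 0.0847 without cKO 3 and 0.0728 without control 3. It was under 0.05 without any other library. Mthfd2 stands in the authors' deposited table at 0.65 (log2 fold change) and an adjusted p of 0.598.

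Marker levels of other cell types are given beside Mthfd2. The summed level of 6 melanocyte markers was 175 to 263 CPM in cKO libraries and 45.8 to 62.8 CPM in control libraries, with 6 of 6 markers separated and 1 of 6, Tyrp1, past the adjusted threshold in edgeR. That of the 4 neutrophil markers with enough counts was 43.1 to 414 CPM in cKO libraries and 6.55 to 77.8 CPM in control libraries, so the groups overlapped; 1 of 4 separated, 0 of 4 passed, and the defining markers Ly6g and Retnlg were below the count filter. The sum of 7 sebocyte markers was 6637 to 10217 CPM in cKO libraries and 11751 to 14838 CPM in control libraries, most of it from Scd1, at 5583 to 8855 CPM in cKO libraries and 10712 to 12776 CPM in control libraries. Of these 7 genes 2 separated lower (Scd1 and Scd3), 1 separated higher (Mc5r), 4 overlapped and 0 passed edgeR. Over all genes tested 5.73% separated higher, 4.81% separated lower and 0.0173% passed edgeR. The part of these cell types in the level of Mthfd2 was not tested.

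The other mitochondrial folate enzymes did not separate. Shmt2 (ENSMUSG00000025403, chromosome 10, 127517123 to 127522444, minus strand) was at 46.1, 38.6 and 34.0 CPM in cKO 1 to 3, against 30.8, 40.4 and 35.0 CPM in control 1 to 3. Control 2 was above cKO 2 and cKO 3 and control 3 was above cKO 3, and the log2 fold change was 0.16 (SE 0.17, 95% interval -0.22 to 0.54; adjusted p = 0.997 in edgeR); it was 0.04 without cKO 1. The gene Ndufa4l2 overlaps Shmt2 on the opposite strand with up to 790 counts, and whether counting used strand is not stated in the labels or headers, so reads of the 2 genes cannot be told apart with certainty. Mthfd1l (ENSMUSG00000040675, chromosome 10, 3973118 to 4167081, plus strand), the formyltetrahydrofolate synthetase that releases formate, was at 22.1, 18.2 and 14.8 CPM in cKO 1 to 3, against 17, 14.7 and 21.1 CPM in control 1 to 3. The groups covered nearly the same range, and the log2 fold change was 0.06 (SE 0.21, 95% interval -0.43 to 0.55). Its sign turned without cKO 1 (-0.09) and without control 2 (-0.06).

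Aldh1l2 (ENSMUSG00000020256, chromosome 10, 83487450 to 83534140, minus strand), which oxidises formyltetrahydrofolate to CO2, was the least abundant of the 9 and the most variable among cKO libraries. Its counts were 155, 110 and 62 in cKO 1 to 3, against 88, 61 and 56 in control 1 to 3, or 8.64, 6.11 and 3.25 CPM in cKO and 5.25, 3.14 and 2.65 CPM in control. cKO 1 and cKO 2 were above all controls, while cKO 3 lay between control 1 and control 2. The coefficient of variation was 45.0% in cKO and 37.5% in control, against 8.78% to 19.9% in cKO and 13.6% to 44.3% in control for the other 8 genes. Its log2 fold change, 0.71 (SE 0.41; adjusted p = 0.981 in edgeR), was the highest of the 9, with a 95% interval of -0.25 to 1.66 that includes 0. It was 0.35 without cKO 1, 1.01 without cKO 3 (unadjusted p = 0.0298, adjusted p = 0.9998 in edgeR) and 1.04 without control 1 (unadjusted p = 0.0474, adjusted p = 0.473). D10Wsu102e overlaps Aldh1l2 on the opposite strand with up to 678 counts, more than Aldh1l2 itself.

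**Figure D2:**
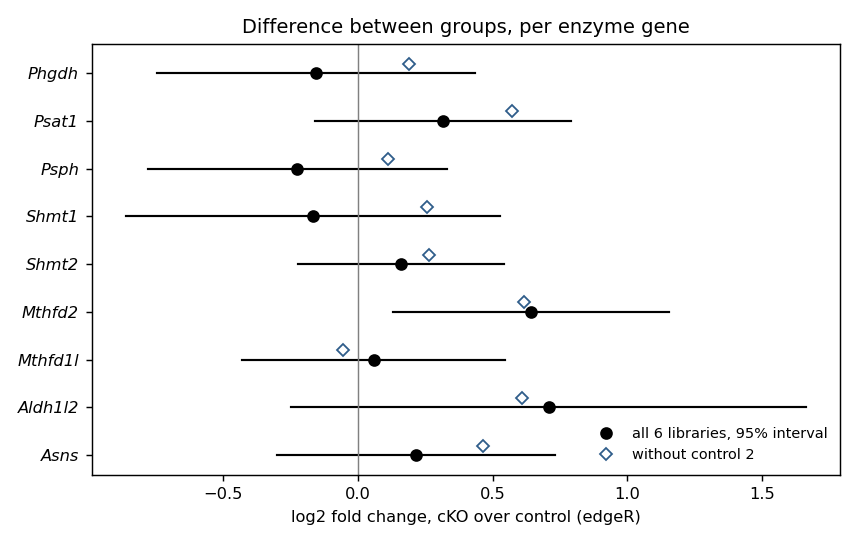
Log2 fold change of cKO over control for each enzyme gene from edgeR, with its 95% interval over all 6 libraries (black) and the value without control 2 (open diamonds). The interval stays above 0 for Mthfd2, at 0.13 to 1.15, and the sign turns without control 2 for Phgdh, Psph, Shmt1 and Mthfd1l.

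Phgdh, Psph and the cytosolic Shmt1 shared their highest library, control 2. Phgdh (ENSMUSG00000053398, chromosome 3, 98313170 to 98339990, minus strand), the dehydrogenase of the first step, was at 75.3, 76.6 and 90.8 CPM in cKO 1 to 3, against 60.9, 129 and 80.8 CPM in control 1 to 3. The cKO libraries lay inside the range of the controls, whose ends were control 1 and control 2. Psph (ENSMUSG00000029446, chromosome 5, 129765558 to 129787449, minus strand), the phosphatase of the last step, was at 52.8, 62.2 and 67.1 CPM in cKO 1 to 3, against 56.1, 100.3 and 56.3 CPM in control 1 to 3. Control 2 stood above all other libraries for Psph. Shmt1 (ENSMUSG00000020534, chromosome 11, 60788104 to 60811718, minus strand) was at 17.5, 13.2 and 15.2 CPM in cKO 1 to 3, against 11.9, 25.9 and 13.7 CPM in control 1 to 3. Control 2 was the highest library for Shmt1 as well. On the opposite strand Cct6a overlaps Psph with up to 2429 counts and Smcr8 overlaps Shmt1 with up to 695 counts.

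The log2 fold changes of these 3 genes were -0.16 for Phgdh (SE 0.26, 95% interval -0.74 to 0.43), -0.22 for Psph (SE 0.24, -0.78 to 0.33) and -0.17 for Shmt1 (SE 0.30, -0.86 to 0.53), each with an adjusted p of 0.997 in edgeR. Without control 2 they were 0.19, 0.11 and 0.26, and without control 1 they were -0.38, -0.37 and -0.37. The direction in these 3 genes changed with control 2. The coefficient of variation was 10.6% in cKO and 38.6% in control for Phgdh, 12.02% and 35.9% for Psph, and 14.2% and 44.3% for Shmt1. In the same library the 7 basal keratinocyte markers had the highest score of the 6 libraries, 0.91, against -0.28 to 0.13 in cKO libraries and -0.53 and -0.02 in the other controls (mean log2 CPM relative to all libraries). The score of 12 proliferation markers was 0.48 in control 2, against -0.26 to 0.33 in cKO libraries and -0.44 and -0.29 in the other controls. Control 1 was lowest in both scores and in Phgdh, Shmt1, Shmt2 and Asns. It also stood apart in mitochondrial counts, at 4.59% of the library against 2.49% to 2.71% in cKO libraries and 2.28% and 2.97% in the other controls, and in the share of its 10 highest genes, 8.24% against 6.12% to 6.65% elsewhere. The summed level of 6 skeletal muscle markers was also highest in control 1, at 7041 CPM. It was 2113 to 5797 CPM in cKO libraries and 3127 and 2984 CPM in control 2 and control 3. The part of keratinocyte or muscle content, cell division or RNA quality in these levels was not tested.

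**Figure D3:**
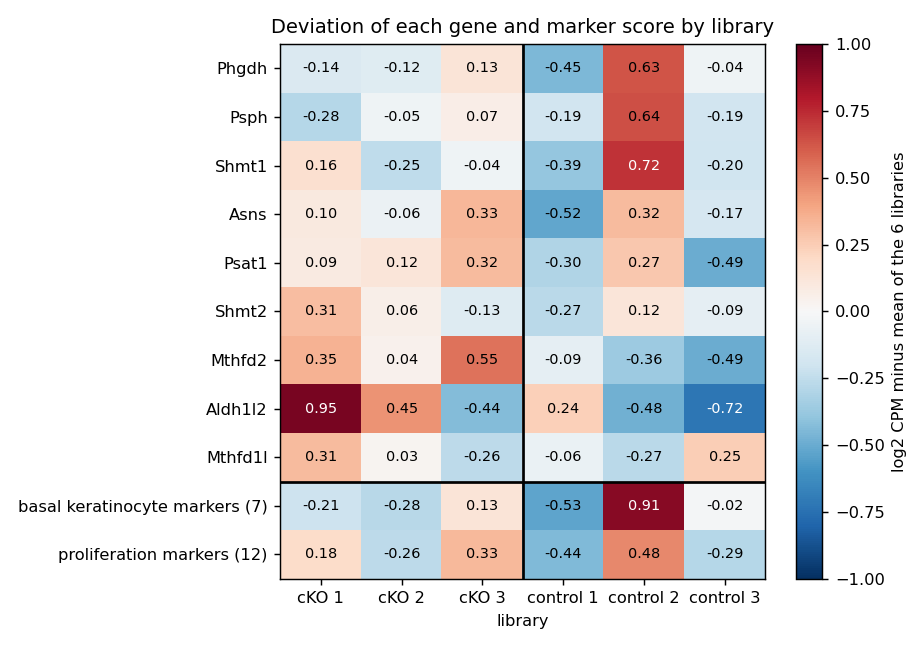
Deviation of log2 CPM from the mean of the 6 libraries for each enzyme gene (rows above the line) and the scores of 7 basal keratinocyte and 12 proliferation markers (rows below it), with cKO libraries left and control libraries right. Phgdh, Psph and Shmt1 peak in control 2 at 0.63 to 0.72, where the basal marker score is 0.91, while Mthfd2 is at -0.36 there.

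Psat1 (ENSMUSG00000024640, chromosome 19, 15904678 to 15947337, minus strand), the aminotransferase between Phgdh and Psph, had the highest counts of the set. It was at 155, 159 and 182 CPM in cKO 1 to 3, against 119, 176 and 104 CPM in control 1 to 3. Control 2 was above cKO 1 and cKO 2, and the other controls were below all cKO libraries. The means were 165 ± 14.5 CPM in cKO and 133 ± 38.1 CPM in control (SD, n = 3 each), giving a log2 fold change of 0.32 (SE 0.21, 95% interval -0.16 to 0.79; adjusted p = 0.981 in edgeR). Without control 2 it was 0.57 (SE 0.14; adjusted p = 0.477 in edgeR, with an unadjusted p of 0.00304), and without control 3 it was 0.17. Asns (ENSMUSG00000029752, chromosome 6, 7675169 to 7693254, minus strand), which makes asparagine from aspartate and holds the ATF motif shown above, was at 34.1, 30.5 and 40.0 CPM in cKO 1 to 3, against 22.2, 39.6 and 28.2 CPM in control 1 to 3. Only control 2 reached into the cKO range. Its log2 fold change was 0.21 (SE 0.22, 95% interval -0.30 to 0.73; adjusted p = 0.997 in edgeR), 0.47 without control 2 (unadjusted p = 0.0301, adjusted p = 0.692) and 0.03 without control 1.

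Ratios of counts between genes of the same library do not depend on how the libraries are scaled, and all 36 ratios between the 9 genes were formed. For 4 of the 36 every cKO library lay on the same side of every control, as it did for 11.3% of all pairs of the 17318 genes. Psat1 over Psph was 2.94, 2.55 and 2.71 in cKO 1 to 3, against 2.12, 1.75 and 1.84 in control 1 to 3, so each cKO library had more Psat1 counts per Psph count than any control. Psat1 over Phgdh was 2.06, 2.07 and 2.004 in cKO 1 to 3, against 1.95, 1.37 and 1.28 in control 1 to 3. The cKO libraries were close to each other, and control 1 lay just under them. Mthfd2 over Mthfd1l was 0.491, 0.483 and 0.841 in cKO 1 to 3, against 0.470, 0.448 and 0.284 in control 1 to 3. Control 1 lay just under cKO 2 in that ratio as well. The remaining one was Phgdh over Asns, at 2.21 to 2.51 in cKO libraries and 2.74 to 3.24 in control libraries. These ratios were chosen after their values were seen and carry no test.

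**Figure D4:**
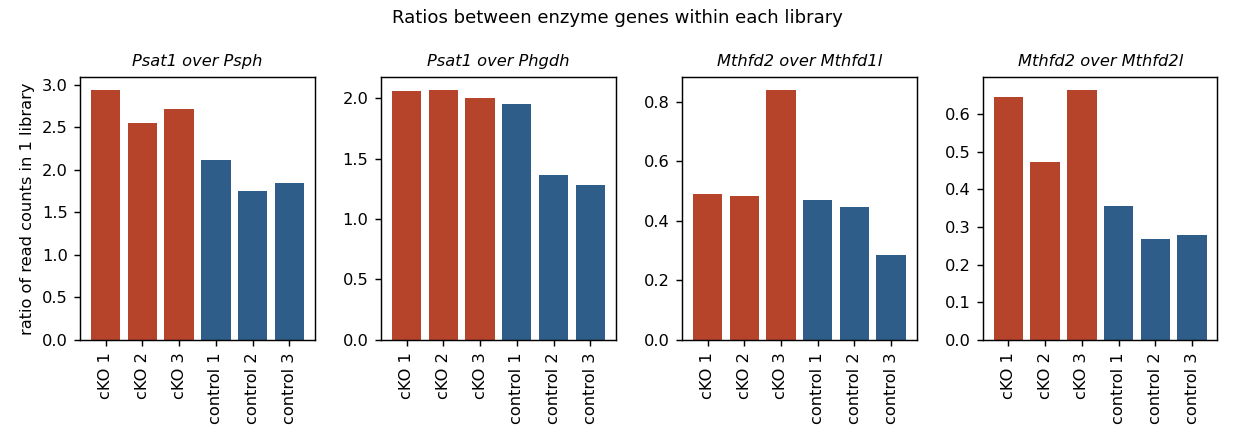
Ratio of the read counts of 2 genes within each library, for Psat1 over Psph, Psat1 over Phgdh, Mthfd2 over Mthfd1l and Mthfd2 over Mthfd2l (cKO in red at left, control in blue). In each panel the 3 cKO bars are above the 3 control bars. The gap is small for Psat1 over Phgdh, where cKO 3 is at 2.004 and control 1 at 1.95. It is also small for Mthfd2 over Mthfd1l, where cKO 2 is at 0.483 and control 1 at 0.470. Mthfd2 and Mthfd2l each separated, in opposite directions, so their ratio had to separate.

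Among themselves the genes fell along different orders of the libraries. Over the 6 libraries Phgdh had a Pearson r of 0.91 with Psph, 0.89 with Shmt1 and 0.82 with Asns on log2 CPM, and Psat1 one of 0.82 with Asns. After the group means were removed these values were 0.91, 0.88, 0.97 and 0.78. Psat1 had an r of 0.95 with Psph and 0.82 with Phgdh after that removal, against 0.57 and 0.57 before it. Mthfd2 had an r of -0.21 with Phgdh and -0.27 with Psph, and Mthfd1l one of -0.75 with Psph. Genes of the same library share its depth and tissue composition, and marker levels differed between libraries. These values therefore describe 6 libraries and carry no test. The genes most like the mean of the 9 over the 6 libraries, among 12676 genes of at least 5 CPM, were Thoc6 (r = 0.998), Ces2g (0.991), Siah2 (0.991), Cnfn (0.987), Trappc2l (0.985) and Cct3 (0.984). Picking the highest of so many candidates over 6 libraries by itself favours high r, and these values carry no test.

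The rest of folate and glycine metabolism was compared through a list of 20 genes, all of which were tested. None passed edgeR, 2 were higher and 1 was lower at an unadjusted p under 0.05, against 3.38% and 1.95% of all genes. The median log2 fold change was -0.01 with 9 positive values, where 47.8% of all genes were positive. The sign of the median varied between alternatives. Slc46a1, the proton-coupled folate transporter, was at 10.8, 10.7 and 8.80 CPM in cKO 1 to 3, against 5.25, 6.86 and 6.62 CPM in control 1 to 3. All cKO libraries were above all controls, giving a log2 fold change of 0.69 (SE 0.21; adjusted p = 0.797 in edgeR). Gldc, the decarboxylase of the mitochondrial glycine cleavage system, was at 9.98, 7.83 and 7.86 CPM in cKO 1 to 3, against 4.77, 5.41 and 6.66 CPM in control 1 to 3, a log2 fold change of 0.60 (SE 0.23; adjusted p = 0.860 in edgeR).

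Mthfd2l, the paralogue of Mthfd2 that catalyses the same mitochondrial steps, had the opposite sign. It was at 16.8, 18.5 and 18.8 CPM in cKO 1 to 3, against 22.4, 24.7 and 21.5 CPM in control 1 to 3, with every cKO library below every control. It stood at -0.34 on the log2 scale (SE 0.15; adjusted p = 0.921 in edgeR). Mthfd2 over Mthfd2l was 0.646, 0.473 and 0.665 counts per count in cKO 1 to 3, against 0.356, 0.267 and 0.279 in control 1 to 3. That is, Mthfd2l had more counts than Mthfd2 in every library, and the gap was smaller in each cKO library. Because each gene separated by itself, in opposite directions, their ratio had to separate and adds no further result. The difference between the paralogues was described after its values were seen and was not tested. The cytosolic enzymes Mthfd1 and Aldh1l1 had log2 fold changes of -0.25 (SE 0.17) and -0.01 (SE 0.15), Tyms, which makes thymidylate, one of 0.15 (SE 0.22), and these 3 were chosen after their values were seen as the cytosolic counterparts.

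Genes that feed, carry or use serine were a second list, of which 15 of 16 were tested. None passed edgeR; without adjustment, p was under 0.05 for 1 gene higher in cKO and 1 lower, where 3.38% and 1.95% of all genes were. Pgam1, the glycolytic mutase that competes for the substrate of Phgdh, was at 105, 87.8 and 77.6 CPM in cKO 1 to 3, against 59.9, 70.8 and 77.6 CPM in control 1 to 3, a log2 fold change of 0.38 (SE 0.16; adjusted p = 0.917 in edgeR). Of the enzymes that turn serine and homocysteine into cysteine, Cbs was at 10.03, 11.2 and 10.3 CPM in cKO 1 to 3, against 12.05, 22.9 and 14.4 CPM in control 1 to 3, a log2 fold change of -0.65 (SE 0.26; adjusted p = 0.894 in edgeR). Cth, which acts after Cbs, was at 6.13, 4.61 and 6.49 CPM in cKO 1 to 3, against 4.06, 4.49 and 3.02 CPM in control 1 to 3, with a log2 fold change of 0.58 (SE 0.27; adjusted p = 0.941 in edgeR). Control 2 was the highest library for Cbs, whose log2 fold change was -0.33 without it (unadjusted p = 0.111, adjusted p = 0.756 in edgeR). In the methionine cycle, which takes up folate-bound methyl groups, 1 of 7 genes was positive, against 47.8% of all genes. None passed edgeR (0.0173% of all genes), and the median was -0.23, or -0.092 in limma-voom and -0.076 with quality weights. The log2 fold changes were -0.27 (SE 0.14) for Mat2a and -0.23 (SE 0.15) for Mat2b, subunits of methionine adenosyltransferase, and -0.17 (SE 0.17) for the reductase Mtrr. Mat2b was at -0.095 without control 1, and Mtrr was at -0.33 without cKO 1 and -0.086 without cKO 3.

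Atf4 and its known target genes outside the set formed a list of 19, of which 18 were tested. Atf4 itself was at 186, 186 and 222 CPM in cKO 1 to 3, against 137, 194 and 158 CPM in control 1 to 3, a log2 fold change of 0.28 (SE 0.17; adjusted p = 0.981 in edgeR). Control 2 was above cKO 1 and cKO 2, so the groups overlapped, and the value was 0.17 without control 1 and 0.42 without control 2. Of the 18 genes 14 were positive, against 47.8% of all genes, and 0 passed edgeR. In edgeR 4 reached an unadjusted p under 0.05 (higher in cKO), and for 5 all cKO libraries exceeded all controls. Over all genes these last shares were 3.38% and 5.73%. The cystine transporter subunit Slc7a11 was at 16.4, 7.05 and 11.9 CPM in cKO 1 to 3, against 4.95, 5.52 and 3.07 CPM in control 1 to 3. The log2 fold change of Slc7a11 was 1.38 (SE 0.36; adjusted p = 0.650 in edgeR). In DESeq2 its adjusted p was 0.0453, and in the other 16 alternatives it was above 0.05. Levels of the 6 melanocyte markers also separated higher in cKO, and the part of cell types in the level of Slc7a11 was not tested. Slc7a5, a neutral amino acid transporter, was at 0.69 (SE 0.18) and the transcription factor Atf5 at 0.54 (SE 0.14), each with an adjusted p of 0.650 in edgeR.

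The 12 cytosolic aminoacyl-tRNA synthetase genes linked to ATF4 were all positive, where 47.8% of all genes were. Their log2 fold changes lay between 0.03 and 0.29, with a median of 0.17. In 6 of 12 all cKO libraries were above all controls (5.73% of all genes), none passed edgeR and 0 had an unadjusted p under 0.05; DESeq2 also gave 0 at an unadjusted p under 0.05, and limma-voom with quality weights gave 5, where 2745 of the 17318 genes had such a p. Yars was at 46.8, 46.6 and 46.9 CPM in cKO 1 to 3, against 37.4, 42.7 and 38.2 CPM in control 1 to 3, a log2 fold change of 0.25 (SE 0.12). The largest value was that of Cars, 0.29 (SE 0.15), and Eprs was at 0.24 (SE 0.12). With upper-quartile scaling 11 of the 12 were positive, as they were without cKO 1 or without control 3.

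**Figure D5:**
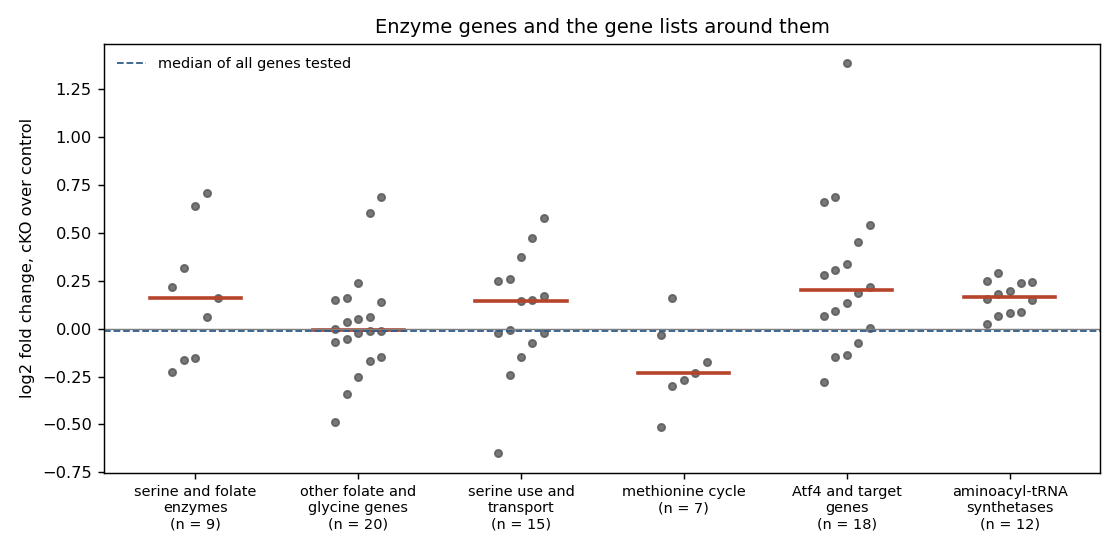
Log2 fold change of cKO over control for each tested gene of 6 lists (grey points), with each list's median (red line) and the median of all 17318 genes (dashed). The medians are 0.16 for the 9 enzymes, -0.01 for other folate and glycine genes, 0.15 for serine use and transport, -0.23 for the methionine cycle, 0.20 for Atf4 and its targets and 0.17 for the synthetases.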

How the data were processed

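The authors deposited 1 table that gives, per the file headers, raw gene-level counts and FPKM values of every library. It also holds the authors' mean normalized count of each group (a signal value, not used here), their log2 fold changes and their p-values and adjusted p-values, per the file headers, with the test not named. The submitters' processing notes name HISAT2, HTSeq and the mm10 build and give no versions; the strand setting of counting is not given there. Libraries were made with the NEBNext Ultra RNA kit from TRIzol-extracted total RNA, per the labels' protocols.

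Counts of 3 cKO and 3 control libraries were filtered with filterByExpr (17318 of 54532 genes), scaled by TMM and tested with the edgeR 4.0.16 quasi-likelihood test (robust, no covariates, two-sided, R 4.3.3), adjusting p by Benjamini-Hochberg across the genes tested and calling at 0.05. SE is the log2 fold change over the root of F. Scores and permutation tests used log2 CPM with a prior count of 2. Counting error is limited by depth: the 9 genes had 56 to 3475 counts per library. The members and gene lists were chosen with earlier results of these data known. Named genes were the 9, Ufl1, up to 3 per pathway list by smallest p, and the 6 non-members most like the set's score; genes outside this rule were picked with their values known, as Atf4 was. Alternatives were RLE, upper-quartile and plain library size scaling, 2 filters, DESeq2 1.42.0, limma-voom (limma 3.58.1) with and without quality weights, limma-trend on FPKM with a pseudocount of 1 or 0.1 before log2, the replicate number as a block, and leaving out each library. The tests were tried on simulated counts. Promoter windows are from RefSeq. The deposited coordinates of all 9 genes equal those of GENCODE M21.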

Additional observations from a re-analysis of the deposited data

How the results depend on the processing

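In each of the 17 alternatives 0 of the 9 enzyme genes were called, and the median of the 9 log2 fold changes stayed positive, from 0.03 without control 1 to 0.27 without control 2. Over all genes the number called was 3, and it was 25 with no filter beyond 1 count, 91 in DESeq2, 26 in limma-voom with quality weights and 12 with the replicate block. It was 0 in limma-voom (891 at an unadjusted p under 0.05) and 0 in limma-trend on FPKM with a pseudocount of 1 or 0.1 (819 and 813), and 0 to 4 when a library was left out (502 to 1876). Mthfd2, Psat1, Shmt2, Aldh1l2 and Asns kept a positive sign in all 17 alternatives, and Mthfd2 had an unadjusted p under 0.05 in 14 of them, with no adjusted p below 0.153. In limma-voom with quality weights Shmt1 was at 0.13 and Mthfd1l at -0.068, signs opposite to those of edgeR. In that fit 3 of 9 had an unadjusted p under 0.05, where 2745 of the 17318 genes had such a p. The 3 were Mthfd2 at 0.77, Psat1 at 0.55 and Aldh1l2 at 1.14 (unadjusted p = 0.00271, 0.00389 and 0.0210). Aldh1l2 was at 0.26 on FPKM with a pseudocount of 1, a scale that understates changes of low genes. Leaving out a library gave -0.38 to 0.19 for Phgdh, -0.37 to 0.11 for Psph, -0.37 to 0.26 for Shmt1 and -0.095 to 0.21 for Mthfd1l, and the causes were not tested. With the replicate block Mthfd2 was at 0.64 (unadjusted p = 0.0403, adjusted p = 0.9753). Same-numbered cKO and control libraries deviated together with r = 0.22, -0.04 and -0.04, and differently numbered ones with r of -0.16 to 0.19. cKO 1 correlated best with control 1, cKO 2 with control 3 and cKO 3 with control 2. With 3 libraries per group these values cannot settle whether the numbers mark pairs. Scaling moved the median of all genes to between -0.04 and -0.01, less than 0.1. Alternatives for the pathway lists were added after seeing the data. Counts were lowest for Aldh1l2, down to 56 in a library.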
